A study of Mus musculus with 2 samples.

Results

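Genes of the tricarboxylic acid (TCA) cycle and of mitochondrial fatty acid oxidation were compared between mouse macrophages left untreated and macrophages given IL-36 gamma. The 36 members are enzymes, subunits and carriers chosen by their place in the pathway, with earlier results of these data known. They were found by symbol among the 54446 genes of the count files, and all 36 had a mean count of at least 10 over the 2 libraries. Of all genes, 14379 met that minimum and are called measured. The 36 fall into 5 genes of pyruvate entry, 13 of the TCA steps, 3 of the carnitine shuttle and 15 of beta-oxidation with its electron transfer. The cells were macrophages grown from bone marrow of C57BL/6 mice, and total RNA was taken for sequencing. One group had no treatment and the other was exposed to IL-36 gamma, which belongs to the interleukin-1 family of cytokines. Each group had 1 library, and the dose, the time of exposure, the age and sex of the mice and any pooling of animals are, in the sources used here, not given. Differences below thus stand without replicates, and p-values are left out.

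Pyruvate reaches the mitochondrial matrix and is turned into acetyl-CoA by the pyruvate dehydrogenase complex, or into oxaloacetate by pyruvate carboxylase. The TCA cycle oxidises acetyl-CoA and passes electrons to the respiratory chain. Long-chain fatty acids enter the matrix as carnitine esters and are shortened by the repeated dehydrogenation, hydration, dehydrogenation and thiolysis of beta-oxidation. In macrophages, inflammatory activation by bacterial products is known for a cycle broken at isocitrate and succinate dehydrogenase, and activation by IL-4 for reliance on fatty acid oxidation.

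Counts in genes came to 17426367 for the control and 17267900 for the treated library, and the members took 0.241% and 0.240% of these. The unit CPM (counts per 1000000 counts of the library) and every ratio use library sizes scaled by TMM, a method that trims extreme genes. Ratios divide the treated by the untreated level, each with an exact 95% Clopper-Pearson interval that covers counting error only. The summed level of 9 macrophage markers was 29890 CPM untreated and 29700 CPM treated, and all 9 were measured, 3 with an interval above a ratio of 1 and 5 below. Of 14 neutrophil markers, 12 were measured, 8 had an interval above a ratio of 1 and 1 below, none was at 0 in both libraries, and their sum was 299.6 and 385.2 CPM. Of 7 monocyte markers 5 were above 1 and 1 below (343.1 and 317.3 CPM summed). No gene of the dendritic list was measured (1.69 and 1.54 CPM summed, Cd209a and Siglech at 0). Of the 7 T cell markers Cd4 alone was measured, with its interval below 1 (13.45 and 7.74 CPM summed, Cd3e, Cd3g and Cd8a at 0), and of the 5 B cell markers Cd79b alone, above 1 (22.8 and 29.3 CPM). Of the 7 stromal markers 5 were measured and 3 lay below 1 (13.3 and 7.97 CPM), the erythroid list summed to 0.506 and 0.0591 CPM, and the 5 mast cell and basophil markers were at 0. These counts of markers are to be read beside all measured genes, of which 20.2% had an interval above 1 and 16.5% below. In bulk RNA, fewer cells of a type and less RNA per cell cannot be told apart. The 13 mitochondrially encoded messenger RNAs had a pooled ratio of 0.886 (0.881 to 0.892). The part of these shifts in the values below was not tested.

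The 36 genes differed little between the libraries. Mdh2, Cs, Sucla2 and Idh3a of the cycle, the cytosolic Mdh1, and Dld of the dehydrogenase complexes had more transcripts with IL-36 gamma. So did the acyl-CoA dehydrogenase genes Acads, Acadl and Acadvl. Cpt1a, the gate of fatty acid entry, and Hadhb had fewer. The ratios of the 11 genes ran from 0.887 (Cpt1a) to 1.19 (Acads). Only Acads, Mdh2 and Cpt1a had intervals that left out 1 in all 10 other settings tried. That of Acadvl did so in 3 of the 10.

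Of the 36 members, 9 (25%) had a whole interval above 1, against 20.2% of all measured genes, and 2 (5.56%) had one below 1, against 16.5%. The chance to leave 1 grows with counts, and 34 of the members had at least 10 CPM in the control. Of these 34, 26.5% lay above 1 and 5.88% below, against 27.6% and 20.3% of the 9062 genes at that level, a background chosen after seeing the data. The share above 1 was thus near the background and the share below 1 was smaller. With scaling by total counts alone, 3 members lay above 1 and 4 below, and over all measured genes the split moved from 2907 above and 2375 below to 2070 and 3214. No member's interval lay wholly past 1.2-fold in either direction. Over all measured genes 2.61% did so upwards and 3.52% downwards, and at 10 CPM or more 2.86% and 3.41%. Past 2-fold there was again no member, against 0.0765% and 0.0904% of measured genes. The median log2 ratio of the members was 0.06, against 0.01 for all measured genes and 0.02 for those at 10 CPM or more. The middle 90% of genes at 10 CPM or more spanned log2 ratios of -0.38 to 0.34, and 35 members lay inside that span, all but Etfb.

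**Figure D1:**
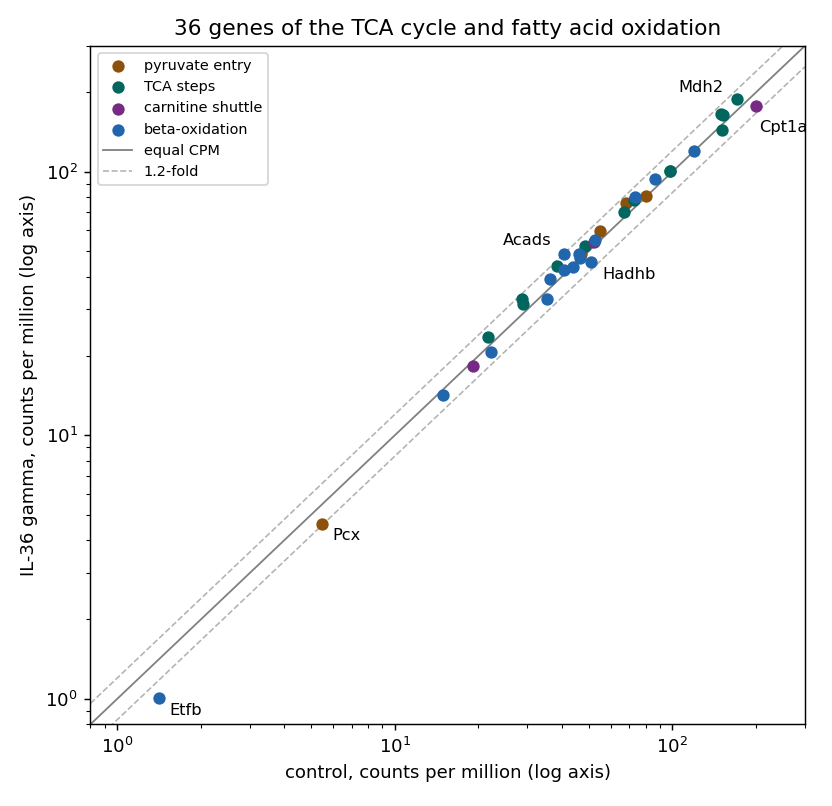
CPM of the 36 genes in the control library (x axis, log) and the IL-36 gamma library (y axis, log), 1 point per gene and 1 library per group, coloured by role. The solid line marks equal values and the dashed lines 1.2-fold; all points but Etfb, at 1.41 and 1.004 CPM, lie on or between the dashed lines.

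Of the 5 genes of pyruvate entry, Dld alone (20%) had an interval above 1 and none had one below. Over all measured genes these shares were 20.2% and 16.5%, so the share above was that of the background. The median log2 ratio of the 5 was 0.06 (0.00 with scaling by total counts). Dld (ENSMUSG00000020664, chromosome 12, 31331277 to 31351453, mm10) encodes the E3 dehydrogenase shared by the pyruvate and oxoglutarate complexes. It had 1209 counts untreated and 1290 treated, a ratio of 1.12 (1.03 to 1.21). With scaling by total counts its interval included 1.

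The E1 subunits Pdha1 and Pdhb form the decarboxylase, and Dlat is the E2 core that carries the acetyl group on lipoic acid. Pdha1 had 1432 and 1374 counts, a ratio of 1.01 (0.935 to 1.09). Pdhb had 977 and 1009 counts, a ratio of 1.08 (0.992 to 1.18), and Dlat 833 and 826 counts, a ratio of 1.04 (0.944 to 1.15). The intervals of all 3 included 1. Of the exonic bases of Pdha1, 603 of 3734 lie under exons of Map3k15 on the opposite strand. Of the 50-base words of Pdhb transcripts, 11.4% occur in other genes, mostly in the processed pseudogene Gm6123. Reads from such stretches could be counted elsewhere or dropped.

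The quantity of 1 subunit relative to another within a library needs no scaling between libraries. Pdha1 over Pdhb changed by a factor of 0.929 (0.827 to 1.04), Dlat over Pdhb by 0.960 (0.841 to 1.10) and Dld over Dlat by 1.08 (0.949 to 1.22). None of these 3 intervals left out 1. Pcx, the pyruvate carboxylase that refills oxaloacetate, was the second rarest member by counts. It had 97 counts untreated and 78 treated, a ratio of 0.844 (0.618 to 1.15). This interval included 1 and reached down to a 1.62-fold decrease.

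The TCA steps carried most of the members above 1. Of 13 genes, 12 had a ratio above 1, 5 (38.5%) had a whole interval above it and none had one below. Over all measured genes 7415 of 14379 had a ratio above 1 and 20.2% a whole interval above it, and at 10 CPM or more 4943 of 9062 and 27.6%. The median log2 ratio was 0.11, and it stayed above 0 under each other scaling, the lowest being 0.05 with total counts. Under total counts the genes above 1 were Mdh1 and Mdh2, and Ogdh was below.

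The cycle starts with Cs, citrate synthase, which joins acetyl-CoA to oxaloacetate. Cs (ENSMUSG00000005683, chromosome 10, 128337734 to 128362479) had 2713 counts untreated and 2779 treated, a ratio of 1.07 (1.02 to 1.13). It is among the more abundant members, so this small difference left counting error, but its interval included 1 under total counts and with the trend on expression removed.

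Isocitrate is oxidised by the NAD-dependent enzyme of Idh3a, Idh3b and Idh3g and by the NADP-dependent Idh2. Idh3a, the catalytic subunit, had 512 and 558 counts, a ratio of 1.14 (1.01 to 1.29). Its interval included 1 under total counts, DESeq2 size factors and at the 99% level. Idh3b had 1741 and 1700 counts, a ratio of 1.02 (0.958 to 1.10), and Idh3g 1290 and 1322, a ratio of 1.08 (0.995 to 1.16). Idh2 had 1191 and 1186 counts, a ratio of 1.05 (0.964 to 1.13). No change in the proportion of subunits left counting error: Idh3a over Idh3b changed by 1.12 (0.971 to 1.28), Idh3a over Idh3g by 1.06 (0.920 to 1.23) and Idh3b over Idh3g by 0.953 (0.860 to 1.06). Idh2 over Idh3a changed by 0.914 (0.789 to 1.06).

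Oxoglutarate dehydrogenase (Ogdh, the E1 subunit) and its E2 subunit Dlst make succinyl-CoA. Ogdh had 2676 counts untreated and 2442 treated, a ratio of 0.958 (0.906 to 1.01), and was the single cycle gene with a ratio under 1. Its interval lay wholly below 1 under total counts, DESeq2 size factors and with the trend on expression removed. Dlst had 1736 and 1702 counts, a ratio of 1.03 (0.962 to 1.10). Ogdh over Dlst changed by 0.931 (0.853 to 1.02), an interval that includes 1.

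Succinyl-CoA ligase pairs the alpha subunit Suclg1 with Sucla2, the ATP-forming beta subunit, or Suclg2, the GTP-forming one. Sucla2 (ENSMUSG00000022110, chromosome 14, 73525319 to 73596142) had 682 and 743 counts, a ratio of 1.14 (1.03 to 1.27), and its interval included 1 under total counts and at the 99% level. Suclg1 had 863 and 883 counts, a ratio of 1.07 (0.977 to 1.18), and Suclg2 386 and 401 counts, a ratio of 1.09 (0.946 to 1.26). The isoform balance Suclg2 over Sucla2 changed by 0.954 (0.798 to 1.14), and Suclg1 over Sucla2 by 0.939 (0.814 to 1.08). Of the 50-base words of Suclg2, 16.0% occur in the processed pseudogene Gm15163.

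Fh1, fumarase, had 513 counts untreated and 531 treated, a ratio of 1.09 (0.961 to 1.23). The last step is run by the mitochondrial malate dehydrogenase, Mdh2. The cytosolic form, Mdh1, works in the malate-aspartate shuttle and is counted here with the TCA steps. Mdh2 (ENSMUSG00000019179, chromosome 5, 135778480 to 135790398) had 3024 and 3190 counts, a ratio of 1.11 (1.05 to 1.16). Mdh1 (ENSMUSG00000020321, chromosome 11, 21556787 to 21572367) had 2664 and 2794 counts, a ratio of 1.10 (1.04 to 1.16). The interval of Mdh2 stayed above 1 in each of 10 alternatives. That of Mdh1 did so in all but the removal of the trend on gene length (ratio 1.04). Among these 10 are other count minimums, which cannot change a gene's interval. The balance of both enzymes showed no change past counting error, as Mdh1 over Mdh2 changed by 0.994 (0.924 to 1.07).

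**Figure D2:**
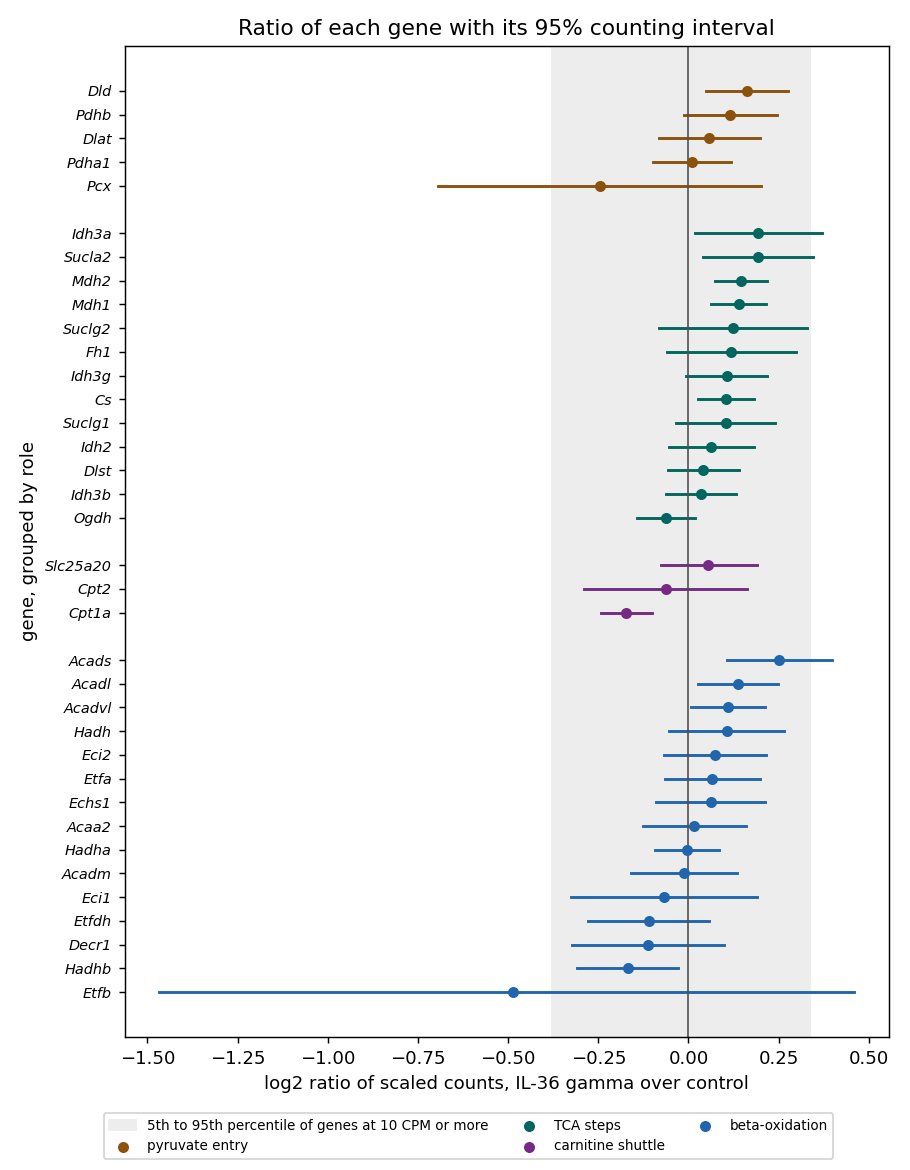
Log2 ratio of scaled counts (x axis, IL-36 gamma over control) of the 36 genes by role (y axis), with exact 95% intervals of counting error as bars and the middle 90% of genes at 10 CPM or more shaded. Among the TCA steps 12 of 13 points lie right of 0, Cpt1a and Hadhb have bars wholly left of it, and Etfb has the widest bar.

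In the carnitine shuttle Cpt1a was lower with IL-36 gamma and the intervals of its partners included 1. Of its 3 genes, none had an interval above 1 and Cpt1a (33.3%) had one below, against 20.2% and 16.5% of all measured genes. Cpt1a (ENSMUSG00000024900, chromosome 19, 3322334 to 3385733) encodes the outer membrane palmitoyltransferase that malonyl-CoA inhibits. It had 3545 counts in the control, the highest of any member, and 2996 after treatment, a ratio of 0.887 (0.845 to 0.932). Its interval stayed below 1 in each of the same 10 alternatives, with a ratio of 0.941 when the trend on gene length was removed. Slc25a20, the carnitine-acylcarnitine carrier of the inner membrane, had 928 and 919 counts, a ratio of 1.04 (0.948 to 1.14). Cpt2, which returns the acyl group to CoA in the matrix, had 341 and 311 counts, a ratio of 0.957 (0.818 to 1.12). Cpt1a over Cpt2 changed by 0.927 (0.786 to 1.09), so a difference between these 2 was not detectable at this depth.

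Of the 15 genes of beta-oxidation, 8 had a ratio above 1, 3 (20%) a whole interval above it and 1 (6.67%) a whole interval below, against 20.2% and 16.5% of all measured genes. The share above was that of the background. The median log2 ratio was 0.02, and it turned to -0.04 with total counts, to -0.0039 with DESeq2 size factors and to -0.03 with the length trend removed. These genes had no common direction.

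The first step is run by acyl-CoA dehydrogenases of decreasing chain length. Acads, for short chains (ENSMUSG00000029545, chromosome 5, 115110299 to 115119346), had 725 counts untreated and 823 treated. Its ratio of 1.19 (1.08 to 1.32) was the highest of the 36, and its interval stayed above 1 in each of the same 10 alternatives. Acadl, for long chains, had 1300 and 1361 counts, a ratio of 1.10 (1.02 to 1.19), and Acadvl, for very long chains, 1542 and 1585, a ratio of 1.08 (1.01 to 1.16). The interval of Acadl included 1 under total counts, with the length trend removed and at the 99% level. That of Acadvl included 1 in 7 of the same 10 alternatives, and the changed count minimums are among those where it did not. Of the exonic bases of Acadvl, 42.9% lie under exons of Dvl2, which had 1380 and 1487 counts, on the opposite strand. Acadm, for medium chains, had 778 and 735 counts, a ratio of 0.992 (0.895 to 1.10). Acads over Acadm changed by 1.202 (1.04 to 1.39), the single one of 18 pairs whose interval left out 1. The 95% level holds for each pair alone and was not adjusted for the 18 pairs. Acadm over Acadl changed by 0.902 (0.794 to 1.03) and Acadl over Acadvl by 1.02 (0.917 to 1.13).

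Hydration, the second dehydrogenation and thiolysis follow. The trifunctional protein does all 3 for long chains, with the alpha subunit from Hadha and the beta subunit from Hadhb. These genes lie head to head on chromosome 5 with start sites 273 bases apart, and 228 bases belong to both promoter windows (250 bases before to 50 after the start, RefSeq, GRCm38.p6). They are shown because 1 stretch of DNA faces both genes. Each is printed 5′ to 3′ in its own gene's direction, with capitals for the bases both windows hold.
Hadha: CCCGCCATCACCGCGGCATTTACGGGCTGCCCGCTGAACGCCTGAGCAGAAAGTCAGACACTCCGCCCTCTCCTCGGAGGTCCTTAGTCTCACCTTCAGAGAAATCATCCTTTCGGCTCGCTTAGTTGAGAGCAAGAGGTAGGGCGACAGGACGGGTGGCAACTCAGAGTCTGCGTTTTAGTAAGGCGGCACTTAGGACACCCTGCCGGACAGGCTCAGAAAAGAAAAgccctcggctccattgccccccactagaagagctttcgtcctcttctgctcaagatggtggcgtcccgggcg
Hadhb: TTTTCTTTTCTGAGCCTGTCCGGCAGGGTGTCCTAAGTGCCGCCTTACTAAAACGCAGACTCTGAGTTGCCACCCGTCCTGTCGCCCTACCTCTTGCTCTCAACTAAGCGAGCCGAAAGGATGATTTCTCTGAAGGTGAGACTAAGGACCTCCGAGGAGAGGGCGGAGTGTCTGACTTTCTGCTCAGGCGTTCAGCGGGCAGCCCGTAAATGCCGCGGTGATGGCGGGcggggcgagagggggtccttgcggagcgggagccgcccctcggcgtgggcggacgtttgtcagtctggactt

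Hadha (window at chr5:30154931-30155230, minus strand) had 2129 counts untreated and 2023 treated, a ratio of 0.997 (0.938 to 1.06). Hadhb (window at chr5:30155003-30155302, plus strand) had 905 and 767 counts, a ratio of 0.890 (0.807 to 0.980). So Hadhb alone of the head-to-head pair had an interval below 1, but Hadha over Hadhb changed by 1.12 (0.999 to 1.26), which includes 1. Of the 50-base words of Hadhb, 19.7% occur in other genes, mostly in the processed pseudogene Gm13910, which had 14 and 15 counts. The interval of Hadhb included 1 when the trend on length or GC content was removed and at the 99% level.

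For shorter chains, Echs1 (enoyl-CoA hydratase) had 723 and 719 counts, a ratio of 1.04 (0.940 to 1.16). Hadh (hydroxyacyl-CoA dehydrogenase) had 644 and 660 counts, a ratio of 1.08 (0.964 to 1.201), and Acaa2 (thiolase) 826 and 796, a ratio of 1.01 (0.917 to 1.12). Each of the 3 intervals included 1. Unsaturated chains need the isomerases Eci1 and Eci2 and the reductase Decr1. Eci1 had 264 and 240 counts, a ratio of 0.954 (0.798 to 1.14), Eci2 822 and 824, a ratio of 1.05 (0.954 to 1.16), and Decr1 396 and 349, a ratio of 0.925 (0.799 to 1.07). These 3 also included 1, and Eci1 over Eci2 changed by 0.907 (0.739 to 1.11).

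Electrons of the first step pass through the flavoprotein of Etfa and Etfb to Etfdh, which hands them to ubiquinone. Etfa had 937 counts untreated and 935 treated, a ratio of 1.05 (0.956 to 1.15), and Etfdh 630 and 556, a ratio of 0.926 (0.825 to 1.04). Etfb had 25 and 17 counts, the fewest of all members, and a ratio of 0.714 (0.362 to 1.38). Etfa over Etfb changed by 1.47 (0.756 to 2.92), too wide to tell a difference at this depth. Of the 50-base words of Etfb transcripts, 43.8% are also in Gm45233, an annotated gene on the same strand that overlaps Etfb and had 0 counts in both libraries. Reads that fit both genes may have been set aside as ambiguous, and the part of that overlap in the low count of Etfb was not tested.

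The roles were then set against each other. The pooled counts of the TCA steps had a ratio of 1.06 (1.04 to 1.08), those of pyruvate entry 1.06 (1.01 to 1.10), of beta-oxidation 1.03 (1.003 to 1.05) and of the carnitine shuttle 0.921 (0.884 to 0.961). The same pooled ratio was 1.04 over all measured genes, 1.041 over those at 10 CPM or more and 1.035 (1.021 to 1.049) over all members. Against that level, the intervals of pyruvate entry and beta-oxidation were at the background and that of the shuttle lay below it. That of the TCA steps began just above it, at 1.042. Mdh1 and Mdh2 (ratios 1.10 and 1.11) gave 28.5% of the control counts of the TCA steps. Whether this margin over the background remains without them was not tested. The interval of beta-oxidation included 1 under each other scaling, with ratios of 0.989 (total counts), 1.0139 (DESeq2 size factors) and 1.0230 (upper quartile). That of pyruvate entry included 1 with total counts (1.02) and DESeq2 size factors (1.0415). Ratios between roles need no scaling, and their intervals (normal approximation on the log scale) again hold counting error only. The TCA steps against the carnitine shuttle gave 1.15 (1.10 to 1.21). Pyruvate entry against the shuttle gave 1.15 (1.08 to 1.22), and the shuttle against beta-oxidation 0.896 (0.854 to 0.940). Cpt1a gave 73.6% of the shuttle's control counts, and without it the TCA steps against the shuttle gave 1.04 (0.963 to 1.13). The shuttle's difference from the cycle thus rested on Cpt1a. The TCA steps against beta-oxidation gave 1.03 (1.001 to 1.07), and 1.02 (0.983 to 1.05) without Mdh1 and Mdh2. Without Hadhb it gave 1.02 (0.9898 to 1.06), and without Acads 1.043 (1.01 to 1.08). Pyruvate entry against the TCA steps (0.994, 0.9502 to 1.04) and against beta-oxidation (1.03, 0.979 to 1.08) included 1.

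Levels per length showed a wide range among genes that work in 1 pathway. Scaled counts per kilobase of exon ran in the control from 58.4 for Mdh1 and 47.8 for Mdh2 to 1.21 for Etfb and 1.15 for Pcx. With IL-36 gamma they ran from 64.3 for Mdh1 to 0.969 for Pcx and 0.863 for Etfb. The level of Etfb may be too low, since reads shared with the overlapping Gm45233 may have been set aside, which was not tested. Adjacent levels below Mdh1 and Mdh2 were often close: Idh3b (28.6 CPM per kilobase), Ogdh (27.6), Idh3g (26.9), Cs (26.4) and Idh2 (25.9) stood within a narrow band in the control by exonic length. How far neighbours differ beyond culture spread cannot be said with 1 library per group. Exonic length counts every annotated exon. By the length of the longest principal transcript, a choice added after seeing the data, Mdh2 came first (117 CPM per kilobase) before Mdh1 (70.6). On that length the same 5 genes were further apart, with Idh3b at 60.6, Idh3g at 54.5, Cs at 52.2, Idh2 at 38.4 and Ogdh at 36.5. Etfb (1.58) and Pcx (1.34) stayed last.

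Some orders within complexes were the same on both lengths. Idh3a stood at 0.198 of the level of Idh3b untreated and 0.2215 treated by exonic length. By the principal transcript these were 0.198 and 0.221. Suclg2 was at 0.488 of Sucla2 in the control by exonic length and 0.375 by the principal transcript, so Sucla2 was the more abundant transcript on both. Cpt1a was at 3.25 times Cpt2 by exonic length and 5.71 times by the principal transcript. In the control the order of 3 pairs turned with the length used: Pdha1 over Pdhb was 1.52 or 0.779, Mdh1 over Mdh2 1.22 or 0.605 and Acadl over Acadvl 1.13 or 0.954. Hadha over Hadhb was 1.78 or 1.199. With IL-36 gamma Ogdh over Dlst turned as well, from 2.51 by exonic length to 0.961, against 2.70 and 1.03 in the control.

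**Figure D3:**
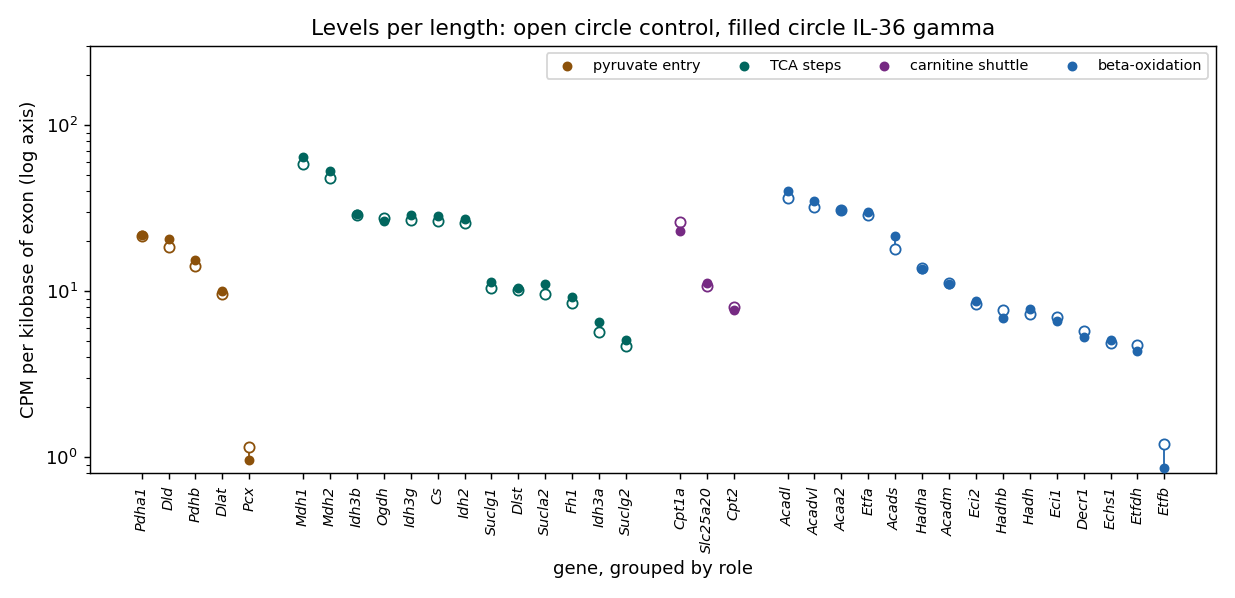
CPM per kilobase of exon (y axis, log) of the 36 genes by role (x axis), with the control library as open and the IL-36 gamma library as filled circles. Mdh1 and Mdh2 are highest and Pcx and Etfb lowest, and the gap between the circles of a gene is small beside the range between genes. The part of gene overlap in the low level of Etfb was not tested.

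The other genes of the pathway, 115 in 9 lists, mostly had intervals that include 1. Of the 109 measured, 28 (25.7%) were above 1 and 13 (11.9%) below, with a median log2 ratio of 0.05. Over all measured genes these shares were 20.2% and 16.5%, and at 10 CPM or more 27.6% and 20.3%. The shares of each list below are to be read against them. The lists were chosen with earlier results of these data known, so their shares are a description only. Of 8 genes of the remaining TCA steps, mostly of succinate dehydrogenase and its assembly factors, 6 (75%) were above 1 and none below (3 and 0 genes with total counts). Sdhb, the iron-sulfur subunit, had 1840 and 2109 counts, a ratio of 1.203 (1.13 to 1.28). The assembly factor gene Sdhaf2 had a ratio of 1.22 (1.10 to 1.36).

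The 7 genes of lipoic acid attachment and its iron-sulfur supply all had ratios above 1. Lipoic acid is the swinging arm of Dlat and Dlst. Of the 7, 5 (71.4%) had a whole interval above 1 and none below, with a median log2 ratio of 0.32 (3 genes and 0.26 with total counts). Nfu1, an iron-sulfur carrier, had 740 and 881 counts, a ratio of 1.25 (1.13 to 1.38). The glutaredoxin gene Glrx5 had a ratio of 1.19 (1.08 to 1.30) and the ferredoxin gene Fdx1 one of 1.33 (1.06 to 1.66).

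Of 10 genes of the pyruvate carrier and the regulators of pyruvate dehydrogenase, 2 (20%) were above 1 and 2 (20%) below, near the background, with a median log2 ratio of -0.12. Mpc2, a subunit of the mitochondrial pyruvate carrier, had 626 and 751 counts, a ratio of 1.26 (1.13 to 1.40). Pdhx, which anchors E3, had a ratio of 1.18 with a lower bound that rounds to 1, and its interval included 1 under each other scaling. Pdk1, a kinase that inhibits the complex, had 1494 and 1283 counts, a ratio of 0.901 (0.836 to 0.972). Pdpr, a regulatory subunit of the opposing phosphatase, had 400 and 310 counts, a ratio of 0.814 (0.699 to 0.946).

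Upstream of the shuttle, fatty acid uptake and activation had genes on both sides. Of 11 measured genes, 3 (27.3%) were above 1 and 3 (27.3%) below. With total counts Acsl5 alone was above and 5 were below, among them the synthetase gene Acsf2. The fatty acid transporter gene Cd36 had 37225 and 28462 counts, a ratio of 0.803 (0.790 to 0.815), and the binding protein gene Fabp4 624 and 402, a ratio of 0.676 (0.595 to 0.768). The transporter gene Slc27a1 had a ratio of 0.876 (0.844 to 0.909). Acsl5 had 2437 and 2769 counts, a ratio of 1.19 (1.13 to 1.26), Acsf3 a ratio of 1.23 (1.03 to 1.46) and Acsl3 one of 1.38 (1.03 to 1.84), and these 3 encode acyl-CoA synthetases. The synthetase genes Acsf2 (ratio 0.883), Acsl1 (0.955) and Acsl4 (1.04) and the transporter gene Slc27a4 (1.08), named after their values were seen, had intervals that include 1. Of 5 measured other carnitine enzymes none left 1. Those with the most counts were Crat (ratio 0.998, 0.908 to 1.10) and Crot (ratio 1.004, 0.890 to 1.13).

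Among 14 cytosolic and shuttle enzymes, 5 (35.7%) were above 1 and 2 (14.3%) below (4 and 3 genes with total counts). The oxoglutarate carrier gene Slc25a11 had a ratio of 1.204 (1.14 to 1.27), the dicarboxylate carrier gene Slc25a10 1.203 (1.15 to 1.26) and the citrate carrier gene Slc25a1 1.15 (1.07 to 1.24). Idh1, the cytosolic isocitrate dehydrogenase, had 3233 and 2771 counts, a ratio of 0.900 (0.855 to 0.947), and Aco1 one of 0.914 (0.839 to 0.995). Of 20 other mitochondrial acyl-CoA enzymes 2 (10%) were above 1 and 1 (5%) below (2 and 4 genes with total counts). Acot9 had a ratio of 1.23 (1.08 to 1.40), Hsd17b10 1.18 (1.06 to 1.31) and Acadsb, the dehydrogenase of short branched chains, 0.825 (0.733 to 0.929). Of 13 measured peroxisomal genes 3 (23.1%) were above 1 and 1 (7.69%) below (2 and 2 genes with total counts). Abcd3 had a ratio of 1.23 (1.12 to 1.36), Acaa1a 1.12 (1.06 to 1.18), Hsd17b4 1.10 (1.04 to 1.17) and Acox3 0.894 (0.839 to 0.952).

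Of 21 measured regulators, 2 (9.52%) were above 1 and 4 (19%) below (1 and 7 genes with total counts). Esrra, a nuclear receptor known for activating oxidative metabolism genes, had 1758 and 2156 counts, a ratio of 1.29 (1.21 to 1.37), and was above 1 under each scaling. With Cd36 and Fabp4, both lower, it was 1 of 3 listed genes whose interval lay wholly past 1.2-fold. That was 1 upwards and 2 downwards among the 109 measured genes of these lists. Over all measured genes 2.61% lay past 1.2-fold upwards and 3.52% downwards. Prkab1, a subunit of AMP-activated kinase, had a ratio of 1.15 (1.02 to 1.30). Acaca, the carboxylase that makes malonyl-CoA, had 409 and 320 counts, a ratio of 0.821 (0.707 to 0.953). Sirt1, a deacetylase, had 213 and 149 counts, a ratio of 0.734 (0.592 to 0.910), and Rxra, the partner of nuclear receptors, 2544 and 2198, a ratio of 0.907 (0.856 to 0.961). Ppara, Ppargc1a and Esrrg had 0 counts in both libraries, where 3 counts equal 0.169 CPM untreated and 0.177 CPM treated.

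**Figure D4:**
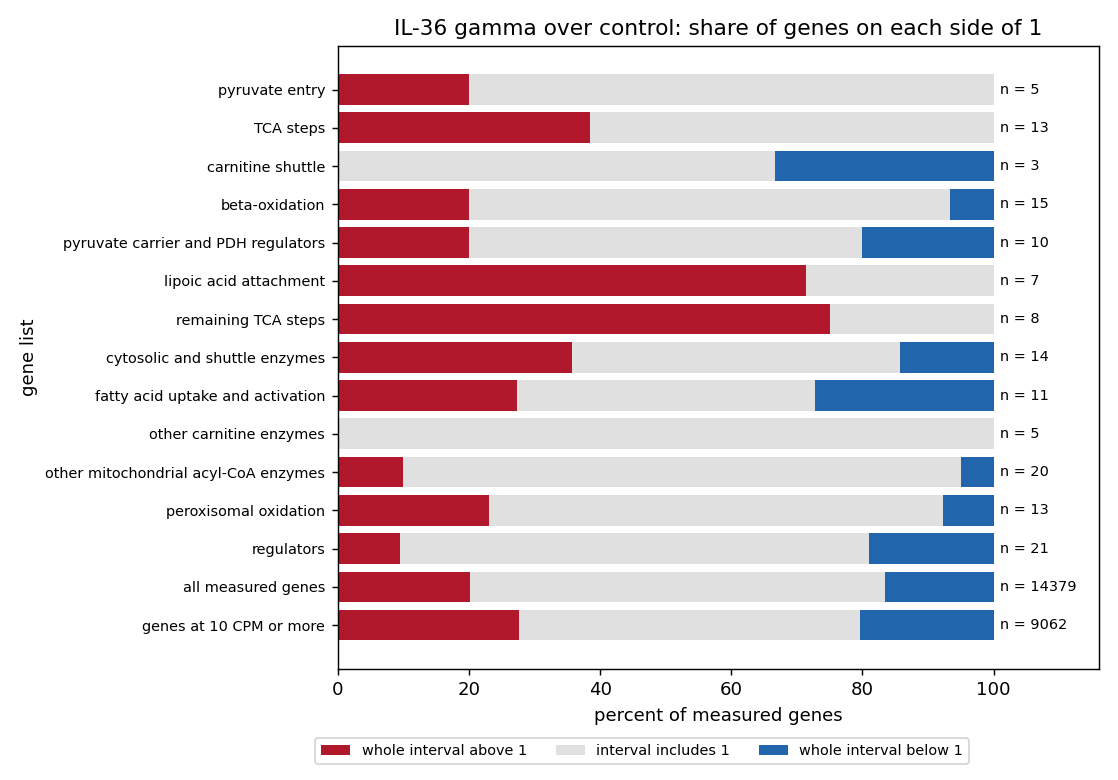
Share of measured genes (x axis, percent) whose whole 95% counting interval lies above 1, includes 1 or lies below 1, for the 4 roles, 9 other lists of the pathway and 2 backgrounds (y axis). Red takes 75% of the remaining TCA steps and 71.4% of the lipoic acid list, against 20.2% of all measured genes. Blue takes 33.3% of the carnitine shuttle, which is Cpt1a, and 27.3% of the fatty acid uptake list. The lists were chosen with earlier results of these data known.

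Promoter windows were at hand for 33 of the 36 members, 39 windows in all. Their median GC content was 60.7%, against 52.7% over 32851 windows of all genes, with a median of 18 CG pairs against 7. Here and below, all genes include those not measured in these cells. Measured genes alone were not taken as a background, so a trait of expressed genes in general cannot be told from one of the members. The letters TATAAA, a common form of the TATA box searched after seeing the data, were in none of the 33 on either strand, against 15.7% of 27025 genes. The estrogen-related receptor element TCAAGGTCA was in none, against 0.466% of genes, and 2 copies of AGGTCA in tandem, spaced by 1 base, in none, against 0.0481%. Motifs this rare would be absent from most sets of 33 genes, so their absence says little about the members. The shorter core AAGGTCA was in 2 of 33 (6.06%), against 5.38% of genes, and it overlaps the longer element wherever that occurs. Both matches are shown because Esrra was higher and these are the only members whose windows hold its core, which lies on the opposite strand in each. Capitals mark the match, Acadm at chr3:153944866-153944893 (minus strand) and Ogdh at chr11:6292145-6292191 (plus strand), and the Ogdh match is in 1 of its 6 windows.
Acadm: gTGACCTTcgggctccggtgacactggg
Ogdh: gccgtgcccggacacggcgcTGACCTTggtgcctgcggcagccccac

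Acadm (ratio 0.992) and Ogdh (ratio 0.958) both had intervals that include 1. The share with the core was near that of all genes, and a match of letters is a description of the window only.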

How the data were processed

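The data were 2 tables of whole-number counts per gene, deposited by the authors, for bone marrow derived macrophages without and with IL-36 gamma. FastQC 0.11.8, Trim Galore 0.6.1, STAR 2.5.0a, HTSeq and mm10 are named in the submitters' processing notes. Not given in the sources used here are the HTSeq version, the annotation release and the use of strand, so reads of genes that overlap on opposite strands may not be told apart. Symbols, positions and lengths came from GENCODE M21 and matched 54409 of 54446 genes. The 5 entries that name no gene were left out of library sizes. They included reads in no feature (47.2% of all counts untreated and 46.3% treated), ambiguous reads (1.79% and 1.84%) and multiple alignments (6.65% and 6.92%).

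TMM factors (edgeR 4.0.16) scaled the library sizes, with no test, since 1 library per group leaves no measure of spread. Measured genes had a mean count of at least 10. Ratios carry exact 95% Clopper-Pearson intervals (scipy 1.17.1). Medians use log2 ratios with a prior count of 2. Intervals and the limit of 3 counts for a count of 0 cover counting error only, and PCR copies are not independent molecules. The interval code was tested on simulated data. Members and lists were chosen with earlier results of these data known. Every member is named. Pairs, and up to 3 members a role in each direction, were to be given in full. Of each other list up to 3 genes a direction whose interval leaves out 1 are named, by the bound nearest 1, or up to 2 with the most counts where none does. One gene that this rule names is not reported here.

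The alternatives tried were scaling by total counts, by size factors of DESeq2 1.42.0 and by upper quartiles, removal of lowess trends (span 0.3) on length, GC content or expression, other count minimums, a 99% interval, thinning, and leaving out genes overlapped on the opposite strand. The background at 10 CPM or more and the length of the longest principal transcript were added after seeing the data. Promoter windows came from RefSeq (GRCm38.p6).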

Additional observations from a re-analysis of the deposited data

How the results depend on the processing

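Of the 11 members whose interval left out 1, Acads, Mdh2 and Cpt1a did so in all 10 settings tried. The other count minimums among these 10 cannot change a gene's interval, so they are no check on a call. The number of members above 1 went from 9 to 3 with total counts and 5 with the 99% interval. The number below 1 went from 2 to 4 with total counts and to 1 with the length trend removed, 1 with the GC trend removed and 1 with the 99% interval. Total counts gave pooled ratios of 1.0156 for pyruvate entry, 1.0213 for the TCA steps and 0.9887 for beta-oxidation, the last on the other side of 1. DESeq2 size factors gave 1.0415 for pyruvate entry and 1.0139 for beta-oxidation, and upper quartile scaling 1.0230 for beta-oxidation. Of these 6 intervals only that of the TCA steps left out 1. The cause was not tested. Of 216 single ratios under 6 alternatives, 190 kept their call, 17 lost it and 9 gained one, with 0 turned in direction while called. By the principal transcript 3 control levels turned order: Pdha1 over Pdhb was 0.7787, Mdh1 over Mdh2 0.6045 and Acadl over Acadvl 0.9539, since the lengths differ. No paired analysis was possible because each group has 1 library, and for the same reason no replicate could be left out. Low counts limit Etfb and Pcx most, and the part of gene overlap in the low count of Etfb was not tested.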
